A study of Mus musculus with 12 samples.

Results

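The regions described here are the open chromatin peaks that the master peak-list of mouse blood cells assigned to genes named Zfp and a number, such as Zfp217 or Zfp809. Every peak whose gene name had that form was taken, apart from 1 gene left out by the rule, which gave 968 of the 84243 peaks and 322 genes. Open chromatin was mapped with ATAC-seq, an assay in which Tn5 transposase inserts adapters where DNA is accessible, in 12 samples from wild-type C57BL/6 mice aged 8 to 12 weeks. The cell types were HSC (hematopoietic stem cell), MkP (megakaryocyte progenitor), EP (erythrocyte progenitor), GM (granulocyte/macrophage) and B cell from bone marrow and T cell from thymus, each sorted by surface markers, with 2 replicates of each. The deposited list pools all 12 samples, gives every peak the same width of 499 bp, and holds no value per sample or per cell type, so nothing below says in which cell type a site was open. For the same reason the depth is unknown, no value has a replicate error, and no test between groups was possible. The Wilson 95% intervals given here cover counting error only, and neighbouring genes that arose by duplication are not independent.

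Most Zfp genes encode proteins with C2H2 zinc fingers, in which a pair of cysteines and a pair of histidines hold a zinc ion and each finger reads a few bases of DNA. Many also carry a KRAB domain, which recruits the corepressor Trim28 and, through it, the histone methyltransferase Setdb1, and KRAB zinc finger proteins are known for silencing endogenous retroviruses and other transposons. These genes multiply by tandem duplication, so that they sit in clusters of close relatives, and they share the Zfp name with unrelated single genes that act as activators, corepressors or RNA-binding proteins.

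Promoter sequences are shown first, as examples that differ in how many bases are shared between copies. In the next lines, which run 5′ to 3′ on the gene's strand of mm10 and end at the base before the transcription start site (TSS), capitals mark bases inside a 32-base string found once in the assembly, and lower case marks bases found only in strings with more than 1 copy. Zfp966 (chr2:175931101-175931250, minus strand) and Zfp967 (chr2:176520854-176521003, plus strand) stand for genes with no unique base, Zfp990 (chr4:145510609-145510758, plus) and Zfp980 (chr4:145670547-145670696, plus) for a cluster without any peak under its genes' names, and Zfp456 (chr13:67375764-67375913, minus) for a cluster member with a promoter peak; Zfp966, Zfp967 and Zfp980 were picked with their values known.
Zfp966: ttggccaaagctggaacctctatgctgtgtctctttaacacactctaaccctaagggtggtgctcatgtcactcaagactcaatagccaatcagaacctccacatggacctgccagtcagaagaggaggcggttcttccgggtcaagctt
Zfp967: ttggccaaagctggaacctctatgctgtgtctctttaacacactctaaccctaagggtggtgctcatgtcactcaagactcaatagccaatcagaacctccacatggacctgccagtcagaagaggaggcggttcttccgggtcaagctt
Zfp990: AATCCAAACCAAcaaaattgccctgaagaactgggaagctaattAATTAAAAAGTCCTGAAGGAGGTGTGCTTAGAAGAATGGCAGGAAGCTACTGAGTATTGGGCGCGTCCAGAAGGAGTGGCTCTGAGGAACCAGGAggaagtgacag
Zfp980: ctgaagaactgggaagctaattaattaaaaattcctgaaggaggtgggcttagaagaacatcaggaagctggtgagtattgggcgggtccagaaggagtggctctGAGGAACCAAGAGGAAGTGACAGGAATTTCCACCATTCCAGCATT
Zfp456: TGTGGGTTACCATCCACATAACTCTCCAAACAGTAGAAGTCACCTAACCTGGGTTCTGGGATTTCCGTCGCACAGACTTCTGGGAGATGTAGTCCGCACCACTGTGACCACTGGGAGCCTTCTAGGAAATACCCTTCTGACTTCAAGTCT
The 150 bases of Zfp966 and Zfp967 were the same letter for letter although the genes lie apart on chromosome 2 and on opposite strands. Of the 150 bases, 107 were in unique strings at Zfp990, 45 at Zfp980 and 150 at Zfp456.

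Promoter peaks, whose centre lay within 500 bp of a TSS by the deposited distance, made up 293 of the 968 Zfp peaks, or 30.3% (95% interval 27.5 to 33.2%). Over the whole master peak-list 15.6% of peaks were promoter peaks. The farthest Zfp promoter peak was 499 bp from its TSS, and the nearest one outside the limit was 504 bp upstream, at Zfp78. Zfp promoter peaks were centred close to the TSS, with a median absolute distance of 61.0 bp against 67.0 bp for the promoter peaks of other genes, and 182 of the 293 lay within 100 bp. Chromosome 7, which carries 90 Zfp genes, held 75 of them, or 25.6%, whereas 6.86% of the promoter peaks of other genes lay there.

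Read by gene, 282 of the 366 protein-coding Zfp genes of the RefSeq annotation had a promoter peak, or 77.0% (72.5 to 81.1%), beside 52.9% of all 21774 protein-coding genes. A further 39 had non-promoter peaks alone and 45 had no peak under their name. Most genes with a promoter peak had exactly 1, as 274 genes did; 6 had 2 and 2 had 3. The genes with 3 were Zfp148, which encodes a factor that binds GC-rich promoters and whose peaks lay 14, 122 and 54 bp from a TSS, and Zfp710. Of the other C2H2 families, 32 of 41 Zbtb genes (78.0%, 63.3 to 88.0%), 13 of 17 Klf genes (76.5%, 52.7 to 90.4%) and 16 of 27 Zkscan or Zscan genes (59.3%, 40.7 to 75.5%) had one, all with intervals that overlap that of the Zfp genes. Olfr genes, the odorant receptors and another large tandem family, had a promoter peak in 7 of 1109 genes (0.631%).

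Non-promoter peaks were fewer per gene than the average of other protein-coding genes and unevenly spread. The Zfp genes averaged 1.83 non-promoter peaks per gene against 2.75 for other protein-coding genes, both with a median of 1. Lower averages were not particular to Zfp genes, since Zkscan or Zscan genes averaged 1.15 and Olfr genes 0.169. Zbtb genes averaged 2.85 and Klf genes 10.0. Of the 366 genes, 165 had none and 37 had 5 or more (10.1%, against 19.4% of other genes), and 120 had promoter peaks alone (32.8%, against 10.8%). The 675 non-promoter peaks were intergenic in 405 cases (60.0%) and intronic in 223 (33.0%), while those of other genes were intergenic in 44.4% and intronic in 48.2%. Their median distance to the TSS was 19987 bp, close to the 22290 bp of other non-promoter peaks. Non-promoter peaks on an annotated CpG island were 37 (5.48%, against 1.95% for other genes).

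Genes in clusters had far fewer non-promoter peaks than genes outside them, while their rates of promoter peaks lay closer together. A cluster was a run of 5 or more Zfp genes whose neighbouring starts were at most 500 kb apart, and 168 of the 366 genes fell into 17 clusters on 7 chromosomes, 8 of them on chromosome 7. A promoter peak was found at 134 of the 168 clustered genes (79.8%, 73.1 to 85.1%) and at 148 of the 198 unclustered genes (74.7%, 68.3 to 80.3%), and these intervals overlap. Among genes with 90% or more of 32-base promoter strings found once in the assembly, 110 of 123 clustered genes (89.4%) had a promoter peak. So had 126 of 162 unclustered genes (77.8%). With neighbours at most 250 kb apart it was 84.6% and 72.6% of all genes. A KRAB match, defined below, was found in 133 of the 168 clustered genes and 84 of the 198 unclustered genes. Shares within each of these classes are given there. The clustered genes had 136 promoter and 120 non-promoter peaks, 0.714 non-promoter peaks per gene, and the unclustered genes 156 promoter and 549 non-promoter peaks, 2.77 per gene. Accordingly 1 clustered gene, Zfp930, had 5 or more non-promoter peaks and 36 unclustered genes did. The non-promoter peaks of clustered genes also lay nearer, at a median of 11056 bp against 25018 bp for the other Zfp peaks, and since the name goes to the nearest TSS, distances and counts per gene are bounded by the spacing of genes. The clustered spans themselves held 22.7 non-promoter peaks per Mb under any gene name, against 26.8 per Mb of assembled genome, and 38.5 peaks of both kinds against 31.8.

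**Figure D1:**
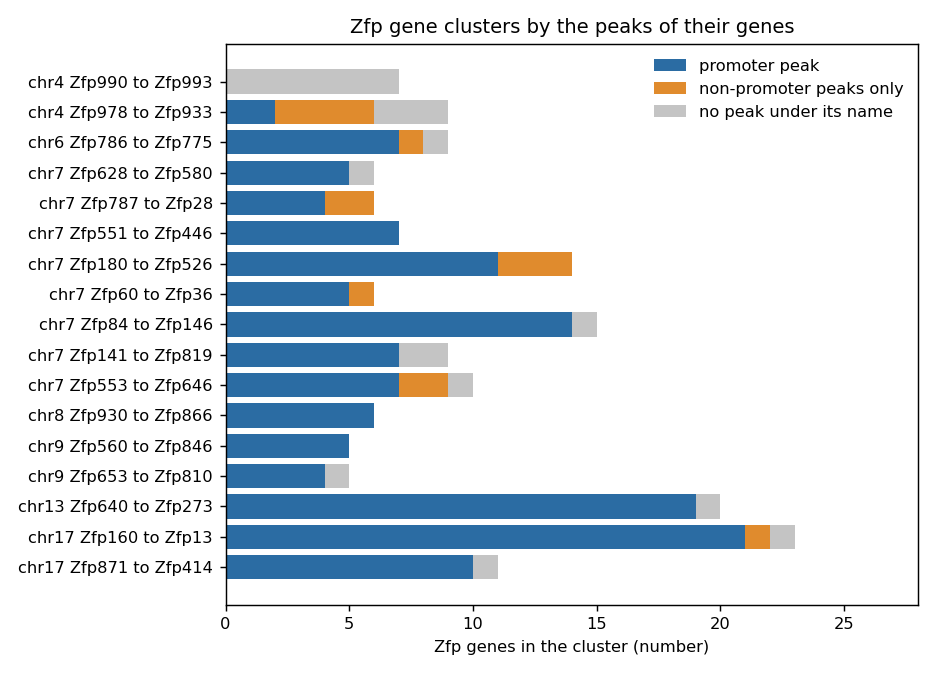
Number of Zfp genes in each of the 17 clusters (horizontal axis), labelled by chromosome and by the first and last gene, and divided into genes with a promoter peak, genes with non-promoter peaks only and genes with no peak under their name. The 7 genes of the cluster from Zfp990 to Zfp993 had no peak under their names. By name, 19 of 20 genes in the chromosome 13 cluster and 21 of 23 in the cluster from Zfp160 to Zfp13 had a promoter peak. By position whatever the name, 19 and 23 of them had a peak within 500 bp of a curated TSS.

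The clusters were not alike. Counts per cluster are of peaks named for its Zfp genes. Every gene had a promoter peak in 3 of them, the 7 genes from Zfp551 to Zfp446 on chromosome 7, the 6 from Zfp930 to Zfp866 on chromosome 8 and the 5 from Zfp560 to Zfp846 on chromosome 9. By position whatever the name, 3 further clusters had a peak within 500 bp of a curated TSS at every gene. These were the 15 genes from Zfp84 to Zfp146, the 23 from Zfp160 to Zfp13 and the 5 from Zfp653 to Zfp810. The chromosome 13 cluster from Zfp640 to Zfp273 had a promoter peak at 19 of 20 genes with 3 non-promoter peaks under their names, and the gene without one was Zfp640. The larger chromosome 17 cluster, from Zfp160 to Zfp13, had one at 21 of 23 genes with 27 non-promoter peaks; its leading gene Zfp52 had 5 peaks. The smaller one, from Zfp871 to Zfp414, had one at 10 of 11 genes and 1 non-promoter peak. On chromosome 7, 14 of 15 genes from Zfp84 to Zfp146 had one, led by Zfp14 with 3 peaks, and so had 11 of 14 from Zfp180 to Zfp526, led by Zfp235 with 3 peaks and none of them at its promoter. Under any gene name, the span of the chromosome 13 cluster held 7 non-promoter peaks. The spans of the larger and smaller chromosome 17 clusters held 38 and 12.

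Of the remaining chromosome 7 clusters, 7 of 9 genes from Zfp141 to Zfp819 had a promoter peak, led by Zfp715 with 4 peaks, as did 7 of 10 from Zfp553 to Zfp646, where Zfp553 and Zfp629 had 3 peaks each. The counts were 5 of 6 from Zfp628 to Zfp580, with 3 peaks at each of those 2 genes, 4 of 6 from Zfp787 to Zfp28, where Zfp787 and Zfp667 had 4 each, and 5 of 6 from Zfp60 to Zfp36. In this last cluster the leader was Zfp36 with 5 peaks, which encodes tristetraprolin, an RNA-binding protein with CCCH rather than C2H2 fingers that destabilises cytokine mRNAs. The chromosome 6 cluster from Zfp786 to Zfp775 had a promoter peak at 7 of 9 genes, led by Zfp746 with 4 peaks. On chromosome 9 the cluster from Zfp653 to Zfp810 had one at 4 of 5 genes and no non-promoter peak under their names, so that Zfp872, Zfp809, Zfp599 and Zfp810 each had 1 peak. Its span held 10 non-promoter peaks under any gene name.

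Both clusters on distal chromosome 4 stood apart from the rest. None of the 7 genes from Zfp990 to Zfp993 had a peak under its name, and the nearest peak of any name lay between 46660 bp (Zfp990) and 674565 bp (Zfp992) from their TSSs. A stretch of 1350591 bp without a peak centre, chr4:145774465-147125056, covered the TSSs of Zfp987, Zfp600, Zfp992, Zfp981 and Zfp993 and reached into the neighbouring cluster; it was 1 of 232 gaps of over 1 Mb between neighbouring peaks of the master list, and 32% of it is unassembled bases. In the neighbouring cluster, from Zfp978 to Zfp933, promoter peaks under the gene's own name were found at Zfp984 and Zfp933 alone of 9 genes. By position whatever the name, 4 of the 9 had a peak within 500 bp of a curated TSS. Of the 32-base strings in the span from Zfp990 to Zfp993, 16.5% occurred once in the assembly, and 29.8% in the next span, against a mean of 81.2% over windows of 1000 bp placed every 1 Mb along the genome. In the other 15 clusters this share was between 56.3% and 93.7%. With strings of 96 bases the shares were 38.3% in the span from Zfp990 to Zfp993 and 58.3% in the next, 81.4 to 99.5% in the other 15 and a mean of 90.4% along the genome. Around the promoters the median was 78.7% and 93.0% in these 2 clusters at that length, and 33.0% and 47.1% with 32-base strings. At Zfp990, Zfp981 and Zfp992, which had no peak, 92.8%, 95.4% and 80.4% of 96-base promoter strings were unique. With 32-base strings it was 37.2%, 37.5% and 36.8%. Their ratios of observed to expected CpG dinucleotides around the TSS were 0.174, 0.207 and 0.203. Why these genes had no peak was not tested. Peaks within 174 and 220 bp of the TSSs of Zfp978 and Zfp982 were listed under Zfp982 and Zfp985. Both peaks named for Zfp991 lay inside the span from Zfp990 to Zfp993, 1386919 and 1357628 bp from that gene's RefSeq TSS. That span also held a promoter peak named for Gm13212 (chr4:145584909-145585407), 42 bp upstream of the deposited TSS. A peak more than 1000 bp farther from the RefSeq TSS than its deposited distance was found in 9 of the 968 cases, at 4 genes.

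Zfp genes with few unique strings at the promoter had promoter peaks less often than the rest. Within 500 bp of each TSS, fewer than 10% of 32-base strings were unique at 11 Zfp genes, and none of these 11 had a promoter peak (0%, interval up to 25.9%). The share was 14 of 28 where 10 to 50% of strings were unique, 32 of 42 (76.2%) at 50 to 90%, 63 of 72 (87.5%) at 90 to 99% and 173 of 213 (81.2%) at 99% or more. Other protein-coding genes had promoter peaks in 1.22%, 10.8%, 27.7%, 52.5% and 62.1% of genes in the same bins, below the Zfp genes in each bin but the lowest, where the intervals overlap. With 96-base strings fewer genes had low shares, 15 Zfp genes being under 50% unique against 39 with 32-base strings. A promoter peak was then found at 0 of 8 Zfp genes under 10%, 2 of 7 at 10 to 50%, 14 of 24 at 50 to 90%, 18 of 24 at 90 to 99% and 248 of 303 at 99% or more. At 8 genes no 32-base string was unique, Zfp965, Zfp966, Zfp967, Zfp968 and Zfp973 on chromosome 2, Zfp433 and Zfp781 on chromosome 10 and Zfp97 on chromosome 17. The authors left out reads that map to several places, and whether open chromatin at such promoters could have been seen in these libraries was not tested.

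By CpG content, the Zfp genes stood above other genes mainly at promoters of intermediate content. The ratio of observed to expected CpG dinucleotides around the TSS was a median of 0.628 for Zfp genes and 0.585 for other protein-coding genes. Where it was over 0.6, 171 of 203 Zfp genes (84.2%, 78.6 to 88.6%) and 78.6% of other genes had a promoter peak. Between 0.4 and 0.6 it was 77 of 88 (87.5%, 79.0 to 92.9%) against 59.7%, and between 0.2 and 0.4 it was 33 of 56 (58.9%, 45.9 to 70.8%) against 25.0%. Under 0.2 it was 1 of 19 (5.26%) against 9.67%. Uniqueness and CpG content went together in part, since the 19 genes of lowest CpG ratio had a median of 41.4% unique strings. Of the 5 among them with 90% or more unique strings, none had a promoter peak, whereas 160 of 186 genes with that share of unique strings and a ratio over 0.6 did. Among genes with under 50% unique strings, 2 of 3 with a ratio between 0.4 and 0.6 and 2 of 5 over 0.6 had one. Zfp433 and Zfp781, with ratios of 0.676 and 0.594 and no unique 32-base string, had no peak.

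**Figure D2:**
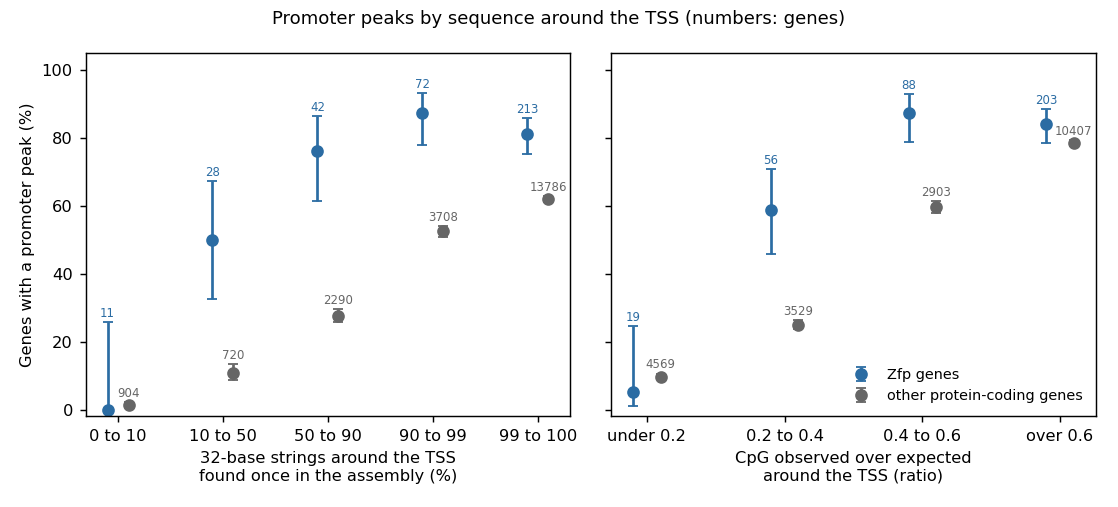
Share of genes with a promoter peak (vertical axis, %) by the share of 32-base strings within 500 bp of the TSS found once in the assembly (left) and by CpG observed over expected there (right), for Zfp genes and other protein-coding genes. Bars are Wilson 95% intervals and numbers are genes per bin; the Zfp genes rise from 0% of 11 to 87.5% of 72 on the left and lie above the other genes from 0.2 to 0.6 on the right.

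The KRAB-type genes, those whose translated RefSeq protein matched either of 2 short letter patterns of the KRAB A box, were 217 of the 366. A looser match gave 220, and genes without a match may still encode a KRAB domain with other letters. All but 1 of the 217 had 2 or more finger matches, and their median was 12 fingers, against 7 in the other 149 Zfp genes. Another 151 protein-coding genes with a KRAB match have other names and are counted throughout among other protein-coding genes. A promoter peak was found at 176 of the 217 (81.1%, 75.4 to 85.8%) and at 106 of the 149 others (71.1%, 63.4 to 77.8%). Among KRAB-type genes the share was 81.2% (73.7 to 86.9%) in clusters and 81.0% (71.3 to 87.9%) outside them. Among the others it was 74.3% (57.9 to 85.8%) and 70.2% (61.2 to 77.8%). Within each class the intervals overlap. The split by cluster within each class was not made for genes with 90% or more unique strings. All 39 Zfp genes with less than 50% of unique strings were KRAB-type; among genes with 90% or more, 132 of 141 KRAB-type genes (93.6%) and 104 of 144 others (72.2%) had a promoter peak. The KRAB-type genes had fewer non-promoter peaks, 0.931 per gene against 3.13, both within clusters (0.692 against 0.800) and outside them (1.31 against 3.85). Of the 114 unclustered genes without a KRAB match, 32 had 5 or more non-promoter peaks, and of the 133 clustered KRAB-type genes 1 did.

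**Figure D3:**
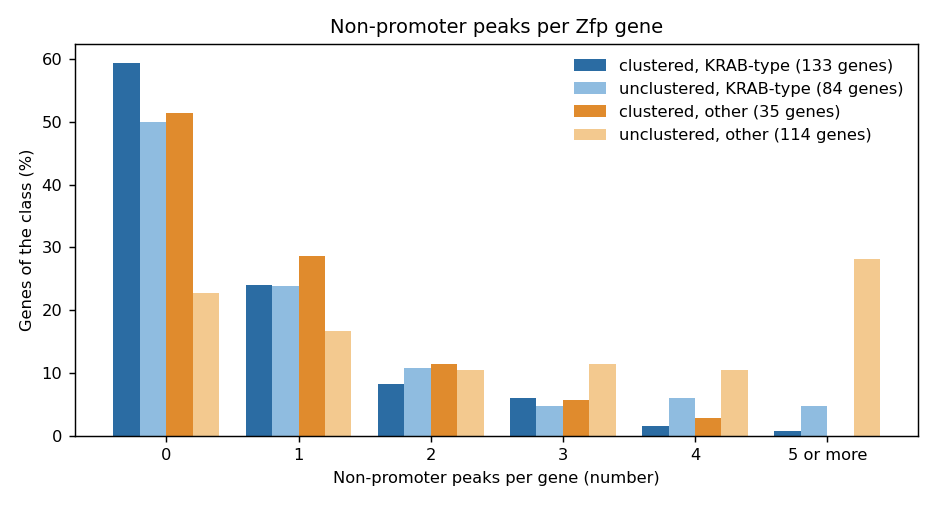
Share of genes (vertical axis, % of the class) by number of non-promoter peaks for clustered and unclustered Zfp genes with and without a KRAB match. The class of unclustered genes without a KRAB match has 32 of its 114 genes at 5 or more peaks, and the other classes have most of their genes at 0 or 1.

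The 14 genes with the most peaks all lay outside the clusters. Zfp217, a corepressor subunit gene amplified in tumours, had 27 peaks, with 1 at the promoter (chr2:170131070-170131568, 99 bp upstream) and 26 others, 21 of them upstream and 22 intergenic, out to 95467 bp. Zfp704 had 22, of which 16 were in introns. Zfp462, Zfp619 and Zfp706 had 18 each. Zfp462 had none at the promoter, and its nearest peak was 2715 bp and its farthest 541648 bp from the TSS, the latter the largest distance among all Zfp peaks. Zfp619, a KRAB-type gene with 33 finger matches, had its 17 non-promoter peaks all downstream. Zfp521, a large zinc finger cofactor gene active in early blood progenitors, and the KRAB-type gene Zfp386 had 14 each, and 12 of the 13 non-promoter peaks of Zfp521 were intronic. Zfp644 had 13, Zfp831 had 12 with none at the promoter, and Zfp281, Zfp326, Zfp365, Zfp407 and Zfp536 had 11 each. The last of these, Zfp536, had no peak at the promoter and a nearest one 749 bp from the TSS.

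**Figure D4:**
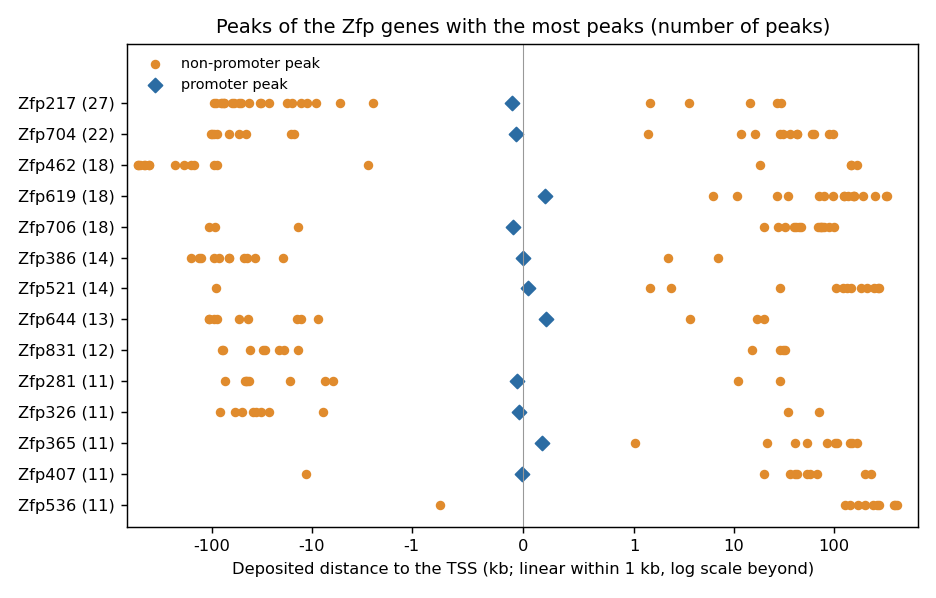
Deposited distance to the TSS (horizontal axis, kb, linear within 1 kb and on a log scale beyond) of every peak of the 14 Zfp genes with 11 or more peaks, with promoter peaks as diamonds and non-promoter peaks as circles. Zfp217 has 21 of its 26 non-promoter peaks upstream, Zfp619 has all 17 downstream, and Zfp462, Zfp831 and Zfp536 have no promoter peak.

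The known regulators had a promoter peak in 19 of 21 cases, beside 77.0% of all Zfp genes. This list of names was chosen with earlier results of these data known. Zfp143, an activator that binds many promoters at an element holding ACTACA, had 1 at its own promoter (143 bp upstream) and 1 in an intron. Zfp57 and Zfp445, KRAB proteins that keep DNA methylation at imprinted loci, each had 1 promoter peak and 1 other, and the other peak of Zfp57 lay in an exon at chr17:37009400-37009898, 5983 bp downstream. Zfp809 and Zfp932, repressors of retroviral sequences, had a promoter peak 5 and 59 bp upstream of the deposited TSS; Zfp809 had no other and Zfp932 had 1. Zfp568, the repressor of a placental Igf2 promoter, had 1 of each kind. Zfp318, which is needed for IgD on mature B cells, had 5 peaks, and so had Zfp335, which is needed for thymocyte maturation. Zfp703 had 6 and Zfp36 had 5, all within 3883 bp of the TSS for Zfp36. Zfp384, Zfp263 and Zfp266 had 2 each, and Zfp207, a mitotic spindle factor, had 1. Zfp42, the pluripotency marker also called Rex1, had no peak and the nearest of any name lay 143518 bp away. Of its 32-base promoter strings 91.3% were unique.

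Zfp91, which encodes a ubiquitin ligase, also had no peak under its name, but a peak named for a neighbouring transcript was centred 311 bp from its TSS. The same held for 9 of the 45 genes without a peak, among them Zfp511 (peak named Tubgcp2), Zfp319 (Usb1), Zfp830 (Cct6b) and Zfp942 (named for its neighbour Zfp943). Of the 45, 20 had under 50% unique strings, 15 had 99% or more and 27 were KRAB-type. The 8 with 99% or more and no peak within 500 bp of the TSS under any name included Zfp105, Zfp454, Zfp488 and Zfp641, which were picked after their values were seen. Counted by position whatever the name, 300 Zfp genes (82.0%, 77.7 to 85.6%) had a peak within 500 bp of a curated TSS, against 58.5% of all protein-coding genes. In the corepressor list (Trim28, Setdb1, Atf7ip, heterochromatin proteins, DNA methyltransferases, the HUSH complex and others), 15 of 16 genes had a promoter peak by name and 16 of 16 by position. Among all protein-coding genes these shares were 52.9% by name and 58.5% by position. The 16 genes had a median CpG ratio of 0.897. Among non-Zfp protein-coding genes with a ratio over 0.6 the shares were 78.6% by name and 88.1% by position.

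Endogenous retroviral repeats were more frequent under the Zfp non-promoter peaks than under others. HOMER placed 87 of the 675 (12.9%, 10.6 to 15.6%) on an LTR repeat, beside 7.79% of all non-promoter peaks in the master list. The share was 41 of 202 (20.3%, 15.3 to 26.4%) for KRAB-type genes and 46 of 473 (9.73%, 7.37 to 12.7%) for the others, and 17 of 120 (14.2%) in clusters against 70 of 555 (12.6%) outside. By family they were ERVL-MaLR in 46 cases, ERVK in 22, ERVL in 10 and ERV1 in 8, and ERVL-MaLR made up 52.9% of the Zfp LTR peaks and 61.1% of those of other genes. Zfp619 had 5 such peaks and Zfp1 and Zfp706 had 4. Those of Zfp619 lay on RLTR14-int, MT2B1, ORR1D2, IAPLTR2_Mm and MERV1_I-int repeats, and a pair of the 4 at Zfp1 lay in its introns on MERVL_2A-int. SINE repeats were under 6.52% of the Zfp non-promoter peaks and 4.87% of others, and LINE repeats under 3.70% and 3.52%. Location differed as well, since the non-promoter peaks of KRAB-type genes were intergenic in 70.8% and those of the other Zfp genes in 55.4%. Intronic peaks were 22.3% and 37.6%. The LTR content of the surrounding DNA was not measured.

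The promoter peaks of Zfp genes were lower in G and C than those of other genes. Their median was 59.5% (quartiles 55.1 to 65.7%) against 63.5% (57.7 to 68.7%), and it was 57.1% in clusters and 61.5% outside. Short strings of known promoter elements were searched in each whole peak on both strands and may overlap. The GC box GGGCGG was in 64.5% of the Zfp promoter peaks (58.9 to 69.8%) and in 75.7% of all promoter peaks, with 54.5% for KRAB-type genes and 80.0% for the other Zfp genes. The ETS string CCGGAAG was in 28.3% (23.5 to 33.7%) against 21.3%, and the cAMP response element TGACGTCA in 6.14% (3.92 to 9.50%) against 3.63%. Within the central 200 bp of the peaks the intervals held the share of all promoter peaks for both, at 16.0% (12.3 to 20.7%) against 13.6% and 4.10% (2.36 to 7.02%) against 2.63%. For the rest the interval held the share of all promoter peaks, with CCAAT in 47.8% against 44.3%, the NRF1 core GCATGCGC in 6.48% against 5.77%, the YY1 core AAGATGGC in 7.51% against 6.34%, the E-box CACGTG in 12.6% against 13.8% and TATAAA in 7.17% against 7.81%. For KRAB-type genes alone the CCAAT interval did not hold it, at 53.4% (46.0 to 60.6%). The other Zfp genes had CCAAT in 39.1% (30.7 to 48.3%).

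A pair of 8-base strings led when all strings in 25 or more Zfp promoter peaks were ranked by their share over that in other promoter peaks, with 10 added to the count in the latter, and they are described without a test because they were chosen from these peaks. ATGTAGTC (or its complement GACTACAT) was in 25 of 293 Zfp promoter peaks (8.53%) and 1.05% of others. The next leading string that does not overlap it, ATGGTGAG, was in 38 (13.0%) and 2.01%. Around the TSSs of all genes, ATGTAGTC on the sense strand was found within 500 bp in 24 of 217 KRAB-type genes (11.1%), 2.68% of other Zfp genes and 0.864% of other protein-coding genes, at a median of 61.5 bp upstream in the KRAB-type genes. The other protein-coding genes here include the 151 with a KRAB match and another name. ATGTAGTC was concentrated by cluster, with either strand counted in 14 of 20 genes of the chromosome 13 cluster, 6 of 15 from Zfp84 to Zfp146, none of the 34 genes of both chromosome 17 clusters and 8 of 198 unclustered genes. The lines below give 30 bases on the gene's strand with the string in capitals, for genes on chromosome 13 (first 5 lines) and chromosome 7 (next 3), chosen to show the shared flank; Zfp712, Zfp595, Zfp84 and Zfp111 were picked with their values known.
Zfp455 chr13:67194444-67194473: acttctgggatATGTAGTCcaagcaactgt
Zfp456 chr13:67375809-67375838: acttctgggagATGTAGTCcgcaccactgt
Zfp65 chr13:67729168-67729197: atttgtgggagATGTAGTCccaacaattat
Zfp712 chr13:67061203-67061232: aattgtgggaaATGTAGTCtcgtccgcggc
Zfp595 chr13:67332588-67332617: acttgtgggaaATGTAGTCcctaccacgtt
Zfp568 chr7:29983689-29983718: ctttctgggaaATGTAGTCcacaaagggac
Zfp84 chr7:29768280-29768309: tcttctgggaaATGTAGTCctgagctggat
Zfp111 chr7:24208190-24208219: cattctgggaaATGTAGTCccaaaagagca
The letters before the string were shared more than those after it, in a pool of genes that was not split by chromosome. Many of these genes are neighbours in the chromosome 13 cluster and are not independent. Over the 24 KRAB-type genes the 5 positions just before the last flanking base read T, G, G, G and A in 91.7%, 87.5%, 87.5%, 87.5% and 95.8% of genes, whereas no position from the second after the string onward was shared by more than 62.5%. Read on the other strand, ACTACA followed by TTTCCCA resembles a promoter element known to be bound by ZNF143, the human counterpart of Zfp143, and no binding was measured here.

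In the KRAB-type genes ATGGTGAG lay mostly downstream of the TSS, at 46 of the 50 genes that had it, and on the sense strand. It was found in 50 of 217 KRAB-type genes (23.0%, 17.9 to 29.1%), 1.34% of other Zfp genes and 2.80% of other protein-coding genes, at a median of 110 bp downstream of the TSS with quartiles of 88.0 and 133 bp, and in 0 of 217 on the opposite strand (interval up to 1.74%), where 1.74% of other protein-coding genes had it. In 33 of the 50 the ATG of the string was the start codon and ended the first exon of the representative RefSeq transcript, so that GTGAG reads as the start of the intron. This exon structure was found in 46 of 217 KRAB-type genes (21.2%), 1.35% of other Zfp genes and 1.21% of other protein-coding genes with more than 1 exon. All 6 genes of the chromosome 8 cluster had the string, as did 4 of 5 from Zfp653 to Zfp810 and 6 of 11 from Zfp871 to Zfp414, against none of the 15 from Zfp84 to Zfp146. The next lines give 30 bases for genes on 4 chromosomes, with the string in capitals; Zfp866 and Zfp964 were picked with their values known.
Zfp930 chr8:69209146-69209175: gaagccacgctATGGTGAGcaagggaccgc
Zfp964 chr8:69654583-69654612: gaagccgcgccATGGTGAGcgcagggccga
Zfp866 chr8:69774774-69774803: gaagccgcgccATGGTGAGcaagggccgct
Zfp619 chr7:39517851-39517880: gaagccgcgccATGGTGAGcaaggggctgc
Zfp809 chr9:22225819-22225848: ccagtcccatcATGGTGAGctcggcgcggc
Zfp810 chr9:22307533-22307562: tcgactccgccATGGTGAGcgcggcgtccc
Zfp386 chr12:116047853-116047882: gagccatggagATGGTGAGcaatggtcgcg
The 11 bases before the string were the same at Zfp964, Zfp866 and Zfp619, which lie on 2 chromosomes. Of the KRAB-type genes, 43 of the 176 with a promoter peak (24.4%, 18.7 to 31.3%) had the string. So did 7 of the 41 without one (17.1%, 8.53 to 31.3%), and these intervals overlap.

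**Figure D5:**
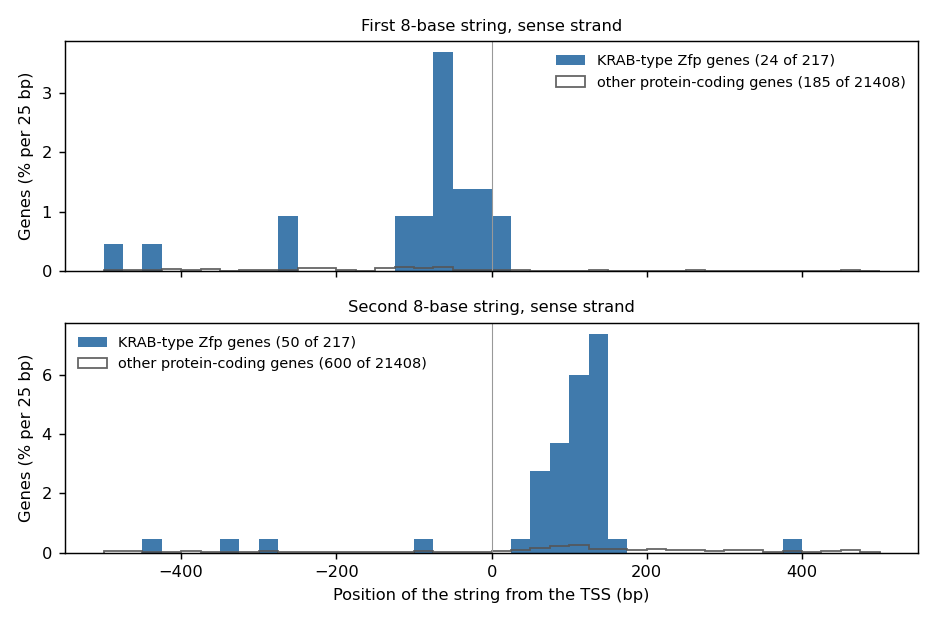
Position relative to the TSS (horizontal axis, bp) of ATGTAGTC (first string, top) and ATGGTGAG (second string, bottom) on the sense strand, as the share of genes per 25 bp, for KRAB-type Zfp genes (filled) and other protein-coding genes (outline). In the KRAB-type genes the first string gathers upstream, with a median of 61.5 bp before the TSS, and the second downstream, with a median of 110 bp after it.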

How the data were processed

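The authors ran the ENCODE pipeline for ATAC-seq on the 12 samples against mm10 and discarded reads with several mapping places. The reproducible peaks of each cell type were concatenated, filtered to non-overlapping peaks with chromVAR and annotated with HOMER (4.10.2 per the submitters' processing notes). The score column deposited by the authors held 0 for all peaks and was not used. Start, end and distance to the TSS are the authors' values in bp, without normalization. There were 0 columns of values per sample, so depth is unknown.

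The members and gene lists were chosen with earlier results of these data known. Gene-level counts used the Entrez ID of each peak and the RefSeq annotation of mm10; all 322 genes matched, 3 of them not protein-coding (9 peaks), and 2 Zfp genes had 1 peak each under an older name. Named genes were the 10 Zfp genes with the most peaks and ties (14 genes), the leader of each cluster, and 21 known genes. Strings of 32 and 96 bases were counted on both strands over the 65 chromosome and unplaced sequences of the assembly. Fingers were matched as C, 2 to 4 residues, C, 12 residues, H, 3 to 5 residues, H in proteins translated from the annotated coding sequence. Counting was checked on simulated sequences. Python 3, numpy, pandas, pysam and matplotlib were used. Alternative promoter widths, name rules, cluster rules, gene assignment, a looser KRAB match and the central 200 bp of peaks were tried, and 2 further ones were added after the data were seen.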

Additional observations from a re-analysis of the deposited data

How the results depend on the processing

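Counts of peaks and genes stayed within 1.5 times the reported count with a promoter width of 1000 bp, other name rules, genes of 2 or more fingers only, gene assignment by RefSeq TSS or by position, without chromosomes X and Y, under the other cluster rules and with a looser KRAB match. A promoter width of 100 bp gave 182 promoter peaks (18.8% of Zfp peaks) and 181 genes with one. In the central 200 bp of the peaks, the shares of Zfp and of all promoter peaks were 43.0% and 58.6% for GGGCGG, 16.0% and 13.6% for CCGGAAG, 32.1% and 28.6% for CCAAT, 4.10% and 2.63% for TGACGTCA, 4.78% and 3.63% for AAGATGGC, 8.53% and 7.50% for CACGTG and 1.37% and 2.74% for TATAAA. The intervals for CCGGAAG (12.3 to 20.7%) and TGACGTCA (2.36 to 7.02%) then held the share of all promoter peaks, which they did not over whole peaks. Assigning peaks to the nearest RefSeq TSS gave 279 genes with a promoter peak and 53 without any peak. Under the other cluster rules, clustered genes had a promoter peak in 78.9 to 84.6% and unclustered genes in 72.6 to 75%. Of the non-promoter peaks, 23 lay within 500 bp of another RefSeq TSS of the same gene, predicted transcripts included. A stricter score could not be tried because all scores are 0. No replicate could be left out, and no paired analysis was possible because the list holds no value per sample.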
